A study of Homo sapiens with 8 samples.

Results

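KMS18 is 1 of 4 human multiple myeloma cell lines profiled on Affymetrix Human Gene 2.0 ST arrays, and it is described here against KMS11, KMS34 and OPM2. All 4 lines are established cultures that carry the t(4;14) translocation, per the labels. Each line gave 1 array of control cells and 1 of cells infected with a lentiviral short hairpin RNA against MMSET I, the short isoform encoded by the NSD2 gene, so that KMS18 had 2 of the 8 arrays and the other lines had 6. What the control virus carried, or whether it carried a hairpin, was not given in the sources used here. The arrays of each group were assigned by the line named in the labels, with no use of measured values. The comparison itself was chosen with earlier results of these data known. KMS18 is thus 1 line set against 3, and its 2 arrays share their cells. The p-values over line means below rest on the spread between lines. Those of fits on arrays rest partly or only on the spread between arrays of a line.

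Multiple myeloma is a cancer of plasma cells, the antibody-secreting end stage of B cells. In t(4;14) disease regulatory elements of the immunoglobulin heavy chain locus come to lie beside NSD2, a histone methyltransferase gene, and FGFR3, a receptor tyrosine kinase gene. Lines with this shared lesion can still differ in surface receptors, adhesion genes and secondary transcription programmes such as that of MAF, a transcription factor that is often highly expressed in myeloma.

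A gene's value is the intensity of its brightest row that names exactly 1 gene, and 11109 genes at or above a mean intensity of 46.7 were compared. Log2 values of the 2 arrays of a line had Pearson correlations across genes of 0.991 to 0.993. Those of the KMS18 arrays were 0.880 to 0.891 with the KMS11 arrays, 0.895 to 0.900 with those of KMS34 and 0.893 to 0.895 with those of OPM2. Genes are not independent replicates, so these values only describe how alike the arrays were. Plasma cell identity was checked with SDC1, the gene of the plasma cell surface proteoglycan CD138. SDC1 had intensities of 914 and 979.6 in the KMS18 control and knockdown arrays and 844 to 1112 (median 973) in the 6 others, so the groups overlapped. IRF4, a transcription factor that plasma cells need, had 2642 and 2772 against 2254 to 4673, and SLAMF7, a plasma cell surface receptor, 1015 and 1187 against 852 to 1690. POU2AF1, a B lineage coactivator, was dim on all 8 arrays, at 70.7 to 88.4 in the other lines and 75.03 and 73.9 in KMS18. Markers of other blood and stromal cells were dim as well, with CD14 at 32.3 to 39.2 and CD2 at 45.7 to 52.3 over the 8 arrays. PRDM1, TNFRSF17, MS4A1 and CD79A were not analysed here.

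Of the genes that carry the shared translocation, FGFR3 did not set KMS18 apart and NSD2 was slightly lower in KMS18 within each treatment. NSD2, the target of the hairpin, had 679.9 in the KMS18 control array against 733 to 814 in the other control arrays. In the knockdown arrays it had 549 in KMS18 against 670.0 to 728. The log2 difference was -0.25 (SE 0.20, limma adjusted p = 0.985 over lines). FGFR3 had 1403 and 1326 against 889 to 2410 (median 1407). Both KMS18 ranges overlapped those of the other lines.

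Which genes distinguish KMS18 was asked first with limma on the means of the 4 lines, in which the line is the replicate. BTLA, an inhibitory receptor of lymphocytes, passed the test as higher in KMS18, which is 1 of 11109 genes or 0.009%, and 0 genes (0%) passed as lower (Benjamini-Hochberg adjusted p under 0.05). At an unadjusted p under 0.05 there were 147 genes higher and 436 lower. An exact permutation over lines could not give a two-sided p under 0.25. The limma call rests on a spread estimated from 3 lines, with KMS18 assumed to vary like them. When the arrays were fitted with the line as a random block, whose estimated correlation was 0.850, 18 genes (0.162%) passed as higher and 26 (0.234%) as lower. In simulated data with known changes this fit also passed unchanged genes more often than its threshold allows, so its adjusted p-values are too small and are printed below only to describe genes. With the 8 arrays taken as independent samples and treatment as a covariate, 123 genes (1.11%) passed as higher and 340 (3.06%) as lower, and those p-values are too small because arrays of a line share their cells.

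Separation in every array was therefore also counted without a test. Both KMS18 arrays lay above all 6 other arrays for 1224 genes (11%) and below all 6 for 1809 genes (16.3%). With a gap of at least 2-fold between the nearest arrays of the groups, 38 genes (0.342%) were higher and 73 (0.657%) lower. After quantile normalization the split was 50 higher and 63 lower. All 44 genes that passed with the line as a random block were among these 111. Of the 38 higher genes BTK, BTLA, OCSTAMP, TEX9 and ZNF257 reached the brightness limit only through KMS18, so they had to differ and their p-values are no independent support. By the same 2-fold rule KMS11 had 124 genes above and 17 below all other arrays, KMS34 had 72 and 31, and OPM2 had 41 and 102, and these differences between lines were not tested.

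**Figure D1:**
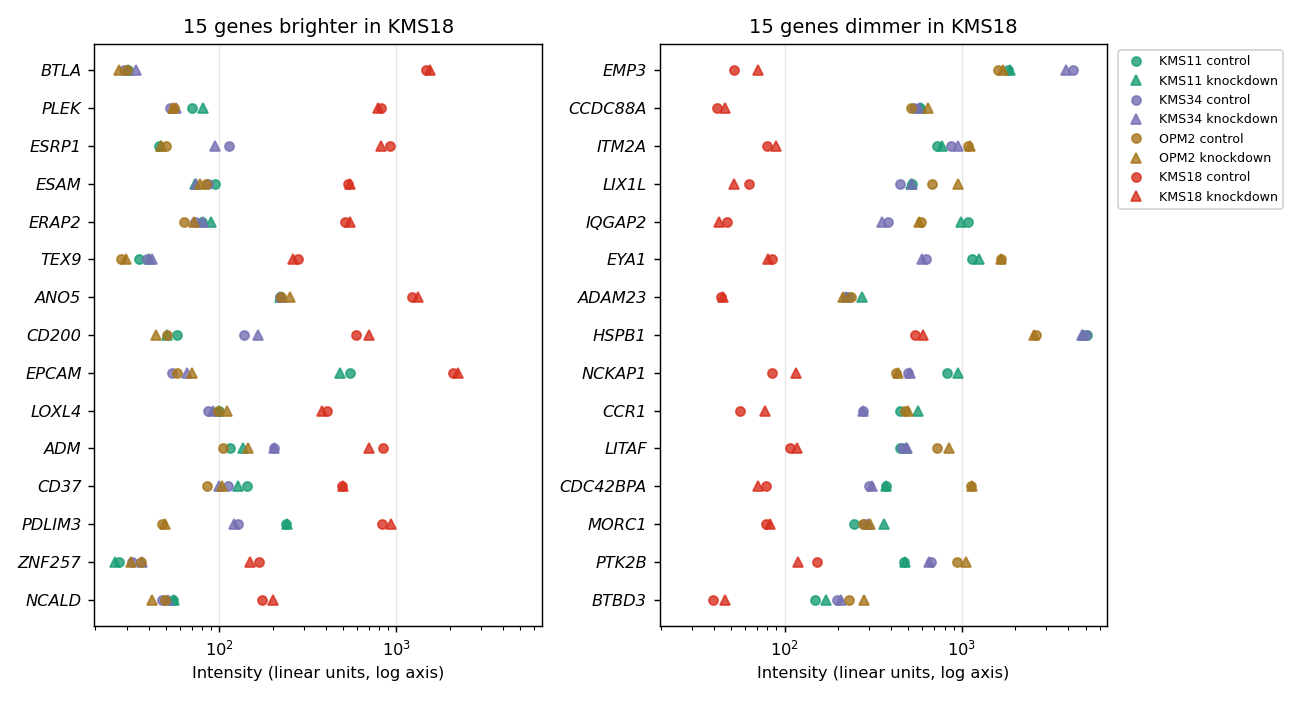
Intensity (linear units, log axis) on each of the 8 arrays for the 15 genes brighter and the 15 dimmer in KMS18 with the widest gap between the KMS18 mean and the nearest other line; circles are control and triangles knockdown arrays, coloured by line. The red KMS18 points stand clear of the other 6 arrays in every row, from 1471 and 1549 against at most 34.0 for BTLA to 52.2 and 70.6 against at least 1606 for EMP3.

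The difference was seen in control and knockdown arrays alike. Across the tested genes, KMS18 minus the mean of the other lines in the control arrays correlated with the same difference in the knockdown arrays at r = 0.932, and both share the line. A limma interaction of treatment with KMS18 gave 0 genes at an adjusted p under 0.05 and 504 at an unadjusted p under 0.05. With KMS34 left out 1 gene passed, the thrombin receptor gene F2R, whose interaction was -1.34 on the log2 scale.

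**Figure D2:**
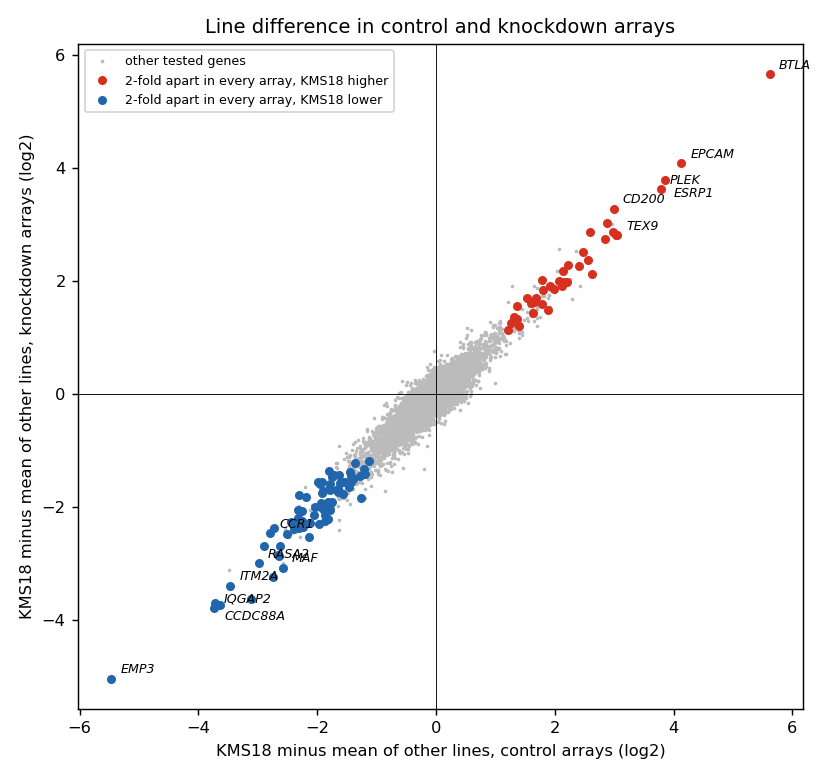
KMS18 minus the mean of the other 3 lines (log2) in the control arrays (x) and in the knockdown arrays (y), 1 point per tested gene; red and blue mark the 38 higher and 73 lower genes that are at least 2-fold apart in every array. Points follow the diagonal from EMP3 at the lower left to BTLA at the upper right, and the coloured genes lie in the same quadrant for both treatments.

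Neighbouring genes on chromosome 3 were among the genes highest in KMS18. In the order of tested genes GCSAM, CD200 and BTLA follow each other, and all 3 belong to the 38 genes that were at least 2-fold higher in every array. The sequence before the transcription start is shown for BTLA and CD200, since they are neighbours, for PLEK, another of the highest genes, and for EMP3, CCDC88A and ADAM23, which were far lower in KMS18. Each is the 250 bases upstream of the start in GRCh38.p14, from RefSeq's gene starts, read 5′ to 3′ on the gene's strand, with CG dinucleotides in capitals.
BTLA (chr3:112499473-112499722, minus strand): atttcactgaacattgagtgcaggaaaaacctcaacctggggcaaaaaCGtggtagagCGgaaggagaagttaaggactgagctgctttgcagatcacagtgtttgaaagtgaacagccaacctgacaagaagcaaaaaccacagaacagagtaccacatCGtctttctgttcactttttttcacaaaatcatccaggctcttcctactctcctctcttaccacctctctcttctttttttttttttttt
CD200 (chr3:112332906-112333155, plus strand): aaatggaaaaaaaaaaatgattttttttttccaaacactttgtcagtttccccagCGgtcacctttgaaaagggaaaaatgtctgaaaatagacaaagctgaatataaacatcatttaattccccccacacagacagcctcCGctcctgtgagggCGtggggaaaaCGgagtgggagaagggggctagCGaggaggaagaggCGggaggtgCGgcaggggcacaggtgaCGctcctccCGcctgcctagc
PLEK (chr2:68365032-68365281, plus strand): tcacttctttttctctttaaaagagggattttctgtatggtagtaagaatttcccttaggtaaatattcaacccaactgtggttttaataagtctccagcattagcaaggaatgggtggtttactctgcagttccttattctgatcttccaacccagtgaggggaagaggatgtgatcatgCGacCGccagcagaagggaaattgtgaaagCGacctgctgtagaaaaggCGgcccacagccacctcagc
EMP3 (first of 2 starts, chr19:48325302-48325551, plus strand): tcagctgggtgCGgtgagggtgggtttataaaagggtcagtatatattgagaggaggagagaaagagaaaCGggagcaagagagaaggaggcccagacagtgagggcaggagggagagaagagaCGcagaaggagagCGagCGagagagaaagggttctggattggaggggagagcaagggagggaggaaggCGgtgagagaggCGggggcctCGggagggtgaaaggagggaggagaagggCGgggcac
CCDC88A (chr2:55419857-55420106, minus strand): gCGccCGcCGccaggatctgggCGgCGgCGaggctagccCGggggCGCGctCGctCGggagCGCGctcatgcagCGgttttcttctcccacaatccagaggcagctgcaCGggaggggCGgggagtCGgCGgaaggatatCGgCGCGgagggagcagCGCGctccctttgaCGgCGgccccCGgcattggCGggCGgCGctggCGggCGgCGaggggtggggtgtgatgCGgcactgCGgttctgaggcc
ADAM23 (chr2:206443282-206443531, plus strand): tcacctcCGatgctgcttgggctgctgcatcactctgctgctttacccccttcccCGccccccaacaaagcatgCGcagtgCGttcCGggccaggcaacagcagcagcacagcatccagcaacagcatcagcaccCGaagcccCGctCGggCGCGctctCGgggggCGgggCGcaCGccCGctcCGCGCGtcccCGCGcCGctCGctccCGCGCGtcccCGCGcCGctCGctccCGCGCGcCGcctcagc

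The windows of BTLA, CD200 and PLEK hold 3, 9 and 4 CG dinucleotides, those of CCDC88A and ADAM23 hold 34 and 33, and those of the 2 starts of EMP3 hold 9 and 4. Both directions thus held windows with few and with many CG. The median over starts was 2 for each of the lower genes IQGAP2 and CCR1, and 37 and 29 for the higher genes LOXL4 and PDLIM3. The same count was made for every tested gene with an entry, taking the median over a gene's starts. Of the 38 genes 2-fold higher in KMS18, 22 had an entry, with a median of 11 CG per 250 bases, and 10 of them (45.5%) had under 10. Of the 73 lower genes, 57 had an entry, with a median of 22, and 8 (14%) had under 10. Over all 8530 tested genes with an entry the median was 19, and 19.8% had under 10. The hexamer CACCTG, the E-box bound by ZEB1, was found on either strand in 8 of the 22 higher genes (36.4%), 8 of the 57 lower genes (14%) and 21.6% of all. For TGCTGA, the core of the element that MAF proteins bind, the shares were 18.2%, 17.5% and 14.2%, and for the TATA box letters TATAAA 13.6%, 10.5% and 8.18%. These shares are descriptions of small sets, and DNA methylation and factor binding were not measured.

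BTLA restrains lymphocyte activation when it binds its ligand TNFRSF14, which was not analysed here. Its intensity was 1471 in the control and 1549 in the knockdown array of KMS18, against 27.3 to 34.0 (median 30.4) in the 6 others. Both KMS18 arrays were thus far above a group that stayed under the brightness limit on every array, and BTLA entered the test only through KMS18. The log2 difference was 5.64 (SE 0.20, 1 line against 3; limma adjusted p = 0.0406), and with the other lines set to the limit BTLA was at least 32.4-fold higher. The difference stayed at 5.61 to 5.67 with each other line left out, but the adjusted p was then 0.319 without KMS11, 0.0916 without KMS34 and 0.577 without OPM2. It was 0.0687 with no filter on dim genes and 0.0611 in the knockdown arrays alone.

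CD200, the ligand of an inhibitory receptor on myeloid cells and a surface marker of some plasma cell tumours, had 590.2 and 703 in KMS18 and 44.2 to 165 (median 54.4) elsewhere. KMS34 was the nearest line, and its 2 arrays lay above those of KMS11 and OPM2. GCSAM, a germinal centre B cell adaptor that restrains motility, was named after its values were seen. Its intensities were 474 and 452 against 41.2 to 139.8, and OPM2 was lowest. On either side of these 3 genes the tested neighbours C3orf52 and ATG3 overlapped between the groups, with differences of 0.15 and 0.14 on the log2 scale. Limma adjusted p-values with the line as a random block were 3.06e-05 for BTLA, 0.0767 for CD200 and 0.16 for GCSAM.

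Some other genes of B cells were also higher in KMS18. Of the 31 tested members of the B cell list, 8 (25.8%) lay above and 3 (9.68%) below all other arrays, beside 11% and 16.3% of all genes, and the list's median difference was 0.10 on the log2 scale, beside -0.0042 for all genes. CD37, a tetraspanin of mature B cells, had 490.3 and 499.8 against 85.3 to 143 (median 108). BTK, the tyrosine kinase downstream of the B cell receptor, had 147 and 165 against 40.1 to 47.7 (median 42.9). FCMR, the Fc receptor for IgM, had 544 and 375 against 64.2 to 209. KMS18 was the brightest line for each of these genes, and CD37 passed with the line as a random block (limma adjusted p = 0.0321) while FCMR did not (0.318). BTK and BTLA, 2 of the 8 genes above all other arrays, reached the brightness limit only through KMS18. PAX5, the factor that maintains B cell identity, reached only 91.6 and 88.3 in KMS18 against 59.0 to 82.7.

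Against this, BCL6, ETS1 and BLNK, which act in B cell differentiation and receptor signalling, lay below all other arrays. BCL6, a germinal centre repressor, had 46.6 and 49.7 against 52.1 to 200.3, so that OPM2 was close. ETS1, a lymphoid transcription factor, had 94.1 and 80.7 against 105 to 453, with KMS34 close. Neither difference passed a limma test over lines or with the random block.

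Among 20 tested plasma cell genes, 4 (20%) lay above all other arrays and 1 (5%) below, beside 11% and 16.3% of all genes. The same list had 2 above and 7 below in KMS11, 4 and 3 in KMS34, and 5 and 6 in OPM2. CD38, the ectoenzyme targeted by myeloma antibodies, had 416 and 365 in KMS18 against 50.6 to 278 (median 168), and the lines ranked KMS11, KMS34, OPM2 and KMS18 from dimmest to brightest. XBP1, the factor that drives secretory expansion, had 1266 and 1292 against 1625 to 2766 and was the plasma cell gene below all others. Of 28 tested genes of the unfolded protein response and secretion, 5 (17.9%) lay above and 1 (3.57%) below, and their median difference was 0.10. CCR10, a chemokine receptor that guides plasma cells to mucosal sites, had 273 and 278 against 80.4 to 115 (limma adjusted p = 0.0349 with the line as a random block).

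PLEK, which encodes pleckstrin, a protein kinase C substrate of platelets and leukocytes, had 816 and 784 in KMS18 and 52.9 to 81.2 (median 56.4) in the other lines. The log2 difference was 3.71 (SE 0.28), with a limma adjusted p of 0.221 over lines and 0.000477 with the line as a random block. Of the 28 tested members of the platelet and myeloid cytoskeletal list, 8 (28.6%) lay above and 4 (14.3%) below all other arrays. For KMS18 the shares over all genes were 11% and 16.3%, and the list's median difference was 0.10. DOCK10, a guanine nucleotide exchange factor, had 657 and 629.9 against 39.9 to 290.4, and its relatives DOCK2 and DOCK8 were also above all others, with 563 and 537 against at most 421 and 178 and 178 against at most 136. DOCK4 went the other way, with 63.2 and 61.0 against 132 to 405. The actin bundler LCP1 did not separate KMS18, since its 1980 and 1908 lay beside the KMS11 values of 1985 and 2052.

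Epithelial genes contributed some of the highest values in KMS18, although most tested members of the epithelial list overlapped between the groups. ESRP1, an epithelial regulator of RNA splicing, had 923 and 818 in KMS18 and 45.5 to 113 (median 48.6) elsewhere, with KMS34 nearest (limma adjusted p = 0.00483 with the line as a random block). EPCAM, an epithelial adhesion molecule, had 2095 and 2221, against 548 and 482 in KMS11 and 54.0 to 70.6 in KMS34 and OPM2. PATJ, a scaffold of epithelial polarity, had 98.5 and 83.2 against at most 49.6. Each of these genes was brightest in KMS18, and EPCAM was also well above the dimmest lines in KMS11. Of the 28 tested epithelial genes, 7 (25%) lay above and 3 (10.7%) below all other arrays, beside 11% and 16.3% of all genes. The other 18 overlapped, and the list's median difference was 0.10. The keratin genes KRT8, KRT18 and KRT19 and the claudin genes CLDN3, CLDN4 and CLDN7 overlapped, with differences of -0.25 to 0.18.

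The junction genes TJP1 and JUP were lower in KMS18. TJP1, a tight junction scaffold, had 89.2 and 79.3 against 254 to 635, and JUP, which encodes plakoglobin, had 311 and 249 against 441 to 923. Of 13 tested mesenchymal genes, 4 (30.8%) lay below all other arrays and 1 (7.69%) above, beside 16.3% and 11% of all genes. VIM, the intermediate filament vimentin, had 229 and 327 against 579.9 to 798, and ZEB1, a repressor of epithelial genes, had 77.7 and 89.4 against 144 to 239. FN1 set KMS11 apart more than KMS18, with 1066 and 1139 in KMS11 and 69.1 and 63.2 in KMS18 against 76.4 to 127 in KMS34 and OPM2. None of these genes passed a limma test over lines.

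Further genes with wide gaps in KMS18 were outside these lists. ESAM, an adhesion molecule of endothelial cells and platelets, had 535 and 547 against 72.7 to 95.3. ANO5, a member of the anoctamin family of membrane proteins, had 1230 and 1326 against 219 to 250.2. LOXL4, a lysyl oxidase relative that acts on the extracellular matrix, had 408 and 383 against 85.9 to 111. For these 3 genes the other lines were tightly grouped, and each passed with the line as a random block (limma adjusted p = 0.00341, 0.00123 and 0.00862). ADM, the gene of the peptide hormone adrenomedullin, had 838 and 699 against 105 to 205. PDLIM3, an actinin-binding LIM protein gene, had 827 and 931 against 47.4 to 243. The other lines were spread more widely for PDLIM3, and neither gene passed with the block (0.0885 and 0.119). TEX9 had 280.0 and 259.9 against 27.9 to 41.8, and the neuronal calcium sensor gene NCALD 175 and 201 against 41.8 to 55.8.

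ERAP2, an endoplasmic reticulum aminopeptidase that trims peptides for class I presentation, had 513 and 545 in KMS18 against 63.2 to 90.2 (median 76.4; limma adjusted p = 0.000704 with the line as a random block). Its neighbour and relative ERAP1 was also above all other arrays, by 0.73 on the log2 scale, as were the next tested genes RIOK2 and CHD1, by 0.64 and 0.59. Of 13 tested genes of class I presentation, 4 (30.8%) lay above and 1 (7.69%) below, beside 11% and 16.3% of all genes. ULBP1, a ligand of the natural killer cell receptor NKG2D, was the lower one, with 24.9 and 29.2 against 38.1 to 143, all but the KMS34 arrays and 1 KMS11 array being under the brightness limit.

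Among the genes lower in KMS18, EMP3 had the widest gap. EMP3 encodes a small membrane protein of the peripheral myelin protein family. Its intensity was 52.2 in the control and 70.6 in the knockdown array of KMS18 and 1606 to 4220 (median 1843) in the others, a log2 difference of -5.25 (SE 0.58; limma adjusted p = 0.331 over lines and 0.002 with the line as a random block). Of its tested neighbours TMEM143 and KDELR1 were also below all other arrays, by -1.10 and -0.90, while ODAD1 and SYNGR4 overlapped.

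Several of the lowest genes encode proteins that act on the actin cytoskeleton or on signalling by small GTPases. CCDC88A, which encodes the actin-binding protein girdin, had 41.5 and 46.3 in KMS18 against 519.8 to 647 (median 578). IQGAP2, a scaffold that binds Cdc42 and Rac, had 47.1 and 42.8 against 354 to 1090. NCKAP1, a subunit of the WAVE actin nucleation complex, had 84.5 and 115 against 426 to 956. In each case every other array was several times brighter than both KMS18 arrays. CDC42BPA, a kinase activated by Cdc42, had 79.0 and 71.2 against 298 to 1138. RASA2, a GTPase-activating protein that switches off RAS, had 27.1 and 27.1 against 155 to 314, so that KMS18 was under the brightness limit on both arrays. CCDC88A was also under the limit on both KMS18 arrays, and IQGAP2 on the knockdown array and in the KMS18 mean. With the KMS18 mean set to the limit, RASA2 was at least 3.41-fold lower than in the nearest line. On the same terms CCDC88A was at least 11.9-fold and IQGAP2 at least 7.9-fold lower. PTK2B, a focal adhesion kinase relative, had 152 and 119.7 against 472 to 1051. The sets of KMS18 and other arrays did not overlap for any of these 6 genes, and CCDC88A, IQGAP2, NCKAP1 and RASA2 passed with the line as a random block (limma adjusted p = 0.000357, 0.00788, 0.0349 and 0.00483) while CDC42BPA and PTK2B did not (0.116 and 0.0607).

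The heat shock protein gene HSPB1 had 546 and 603 in KMS18 against 2572 to 5095 elsewhere, which left it bright but far below the other lines. ITM2A, a type II membrane protein gene, had 80.0 and 89.2 against 728 to 1109. EYA1, a phosphatase and transcriptional coactivator gene, had 85.3 and 80.7 against 599 to 1666. ADAM23, a metalloprotease relative that acts in cell adhesion, had 44.0 and 45.1, both under the brightness limit, against 215 to 273. All 4 genes were below every other array and passed with the line as a random block (limma adjusted p = 0.0112, 0.000477, 0.0082 and 0.00889). LIX1L, LITAF, MORC1 and BTBD3 completed the 15 lower genes with the widest gaps, at 51.7 to 62.7, 107 to 118, 78.1 to 82.5 and 39.4 to 45.9 in KMS18 against at least 446, 446, 246 and 149 in the other arrays. BTBD3 was under the brightness limit on both KMS18 arrays.

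Genes associated with MAF in myeloma were lower in KMS18. MAF itself had 72.2 and 54.2 in KMS18, 166 and 173 in OPM2, 414 and 379 in KMS34 and 1158 and 1424 in KMS11, so the 4 lines were ordered without overlap. The log2 difference of KMS18 from the mean of the others was -2.82 (SE 1.16; limma adjusted p = 0.959 over lines and 0.313 with the line as a random block), the spread among the other lines being wide. Of the 12 tested members of the list, MAF included, 7 (58.3%) lay below all other arrays and 0 above, with a median difference of -0.71, beside 16.3% and -0.0042 over all genes. The median difference of the same list, each line against the other 3, was 0.94 in KMS11, 0.29 in OPM2 and -0.06 in KMS34. The list was thus higher in OPM2 than in KMS34, the reverse of their order for MAF. CCR1, a chemokine receptor that MAF is known to raise, had 56.3 and 78.0 in KMS18 against 276 to 569 (median 464; limma adjusted p = 0.0299 with the block). CCND2, the cyclin that MAF drives, had 569 and 545 against 793 to 1158. DEPTOR, an inhibitor of mTOR kinase that is abundant in myeloma with MAF translocations, had 347 and 466, just under the OPM2 values of 467 and 488 and below a minimum of 1473 in KMS11 and KMS34. MAFA overlapped, at 114 and 127 against 105 to 146.

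**Figure D3:**
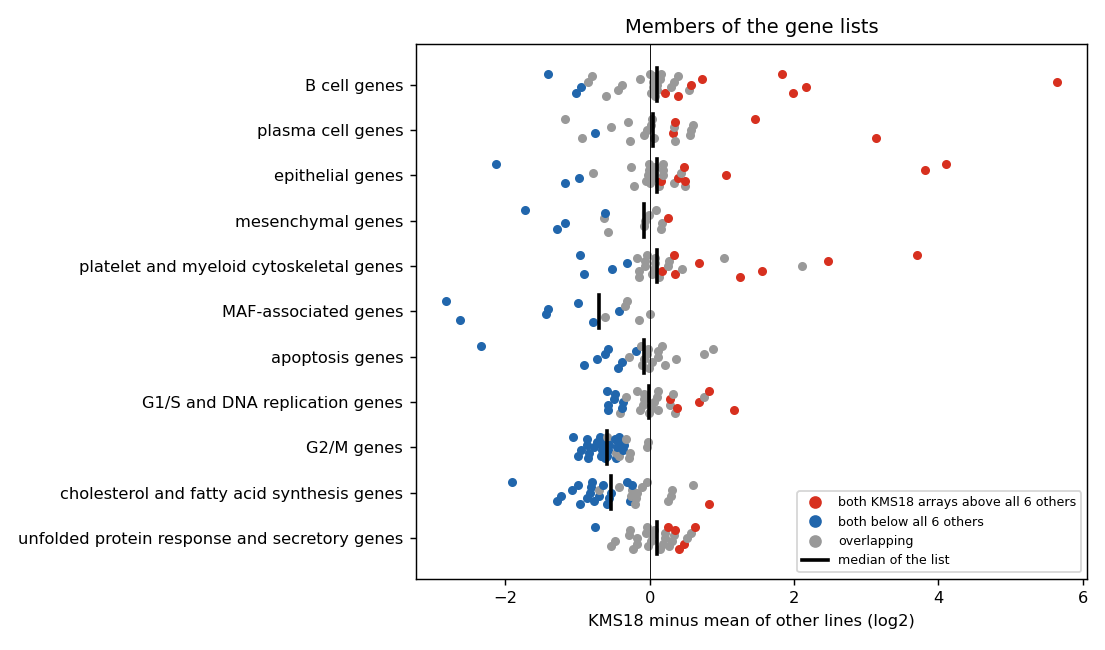
KMS18 minus the mean of the other 3 lines (log2) for each tested member of 11 gene lists; red and blue points are genes whose 2 KMS18 arrays lie above or below all 6 others, grey points overlap and black bars are list medians. The medians of the MAF-associated, G2/M and cholesterol lists lie at -0.71, -0.59 and -0.54, and those of the other lists shown between -0.08 and 0.10.

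Several apoptosis genes were lower in KMS18. BIRC2, which encodes the ubiquitin ligase cIAP1 that restrains noncanonical NF-kB signalling, had 30.04 and 33.01 in KMS18, under the brightness limit, against 147 to 173 (median 158; limma adjusted p = 0.00282 with the line as a random block). It was at least 3.27-fold lower than in the nearest line with KMS18 set to the limit. Of the tested neighbours of BIRC2, YAP1 and TMEM123 lay below all other arrays by only -0.25 and -0.18 on the log2 scale. In the apoptosis list 8 of 23 tested genes (34.8%) lay below all other arrays and 0 above, beside 16.3% and 11% of all genes, with a median difference of -0.08. The lower genes included the death effectors BAK1 (-0.91 on the log2 scale), BAX (-0.38) and BCL2L11 (-0.73), while the survival genes MCL1 and BCL2L1 overlapped. TRAF3, a brake on noncanonical NF-kB that is in the NF-kB list, had 368.3 and 389.9 against 136 to 353 and was highest in KMS18. Of 23 tested NF-kB genes 5 (21.7%) lay above and 2 (8.7%) below, beside the same 11% and 16.3% of all genes.

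Genes of the G2 and M phases of the cell cycle were lower in KMS18 as a group. Of the 36 tested genes, 28 (77.8%) lay below all other arrays and 0 above, beside 16.3% of all genes, and the median difference was -0.59 on the log2 scale. CDK1, the kinase that drives entry into mitosis, had 179.6 and 179 in KMS18 against 271 to 464 (median 345). KIF23, a kinesin of cytokinesis, had 361 and 448 against 789.7 to 876. AURKA, a mitotic spindle kinase, had 232 and 209 against 265 to 624. The KMS18 arrays were the dimmest for these 3 genes. FOXM1 and TTK overlapped, with differences of -0.042 and -0.026. In the control arrays the median was -0.68 and in the knockdown arrays -0.51. For comparison, the list of G1/S and DNA replication genes had 5 of 29 (17.2%) above and 7 (24.1%) below all other arrays. Over all genes 11% lay above and 16.3% below. The median of the G1/S list was -0.01, and whether the lists differ was not tested. None of the 36 genes passed limma over lines or with the random block. With arrays as independent samples 8 of 36 passed as lower, beside 3.06% of all genes. PBK, a mitotic kinase gene outside the list, had 201 and 209 against 539 to 1020.

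Genes of cholesterol and fatty acid synthesis were also lower in KMS18. Of 33 tested genes, 19 (57.6%) lay below all other arrays and 1 (3.03%) above, beside 16.3% and 11% of all genes. The median difference was -0.54. SREBF1, the transcription factor that switches on fatty acid synthesis, had 122 and 99.5 against 305 to 561 (median 414). INSIG1, a sterol sensor that holds SREBP proteins back, had 1853 and 1997 against 3475 to 5174. ACSL1, which activates long-chain fatty acids, had 114 and 109 against 149 to 325. KMS18 was the dimmest line for each, and OPM2 the nearest. FADS1, a fatty acid desaturase, had 136 in the control and 69.1 in the knockdown array of KMS18 against 170.1 to 380.2, so that its KMS18 arrays differed more from each other than those of the other genes. In the mevalonate pathway IDI1, FDPS and MVD differed by -0.96, -0.78 and -0.99 on the log2 scale, and fatty acid synthase, FASN, by -0.71. SQLE, the squalene epoxidase gene, was the gene above all other arrays, by 0.82, and it lies on chromosome 8. None of the 33 passed limma over lines or with the random block. With arrays as independent samples 6 of 33 passed as lower, beside 3.06% of all genes. Without KMS11 the median was -0.36, without KMS34 -0.44 and without OPM2 -0.61.

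**Figure D4:**
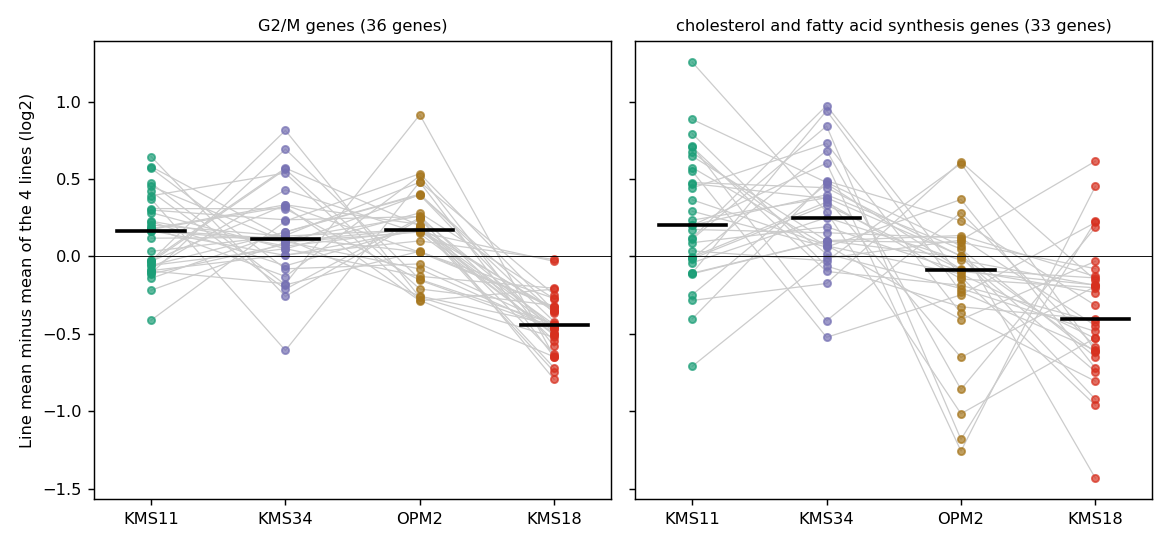
Line mean minus the mean of the 4 lines (log2) for 36 G2/M genes (left) and 33 genes of cholesterol and fatty acid synthesis (right); points are genes, grey lines join a gene across the lines and black bars are medians. KMS18 has the lowest median in both panels, and OPM2 is lower than KMS11 and KMS34 in the right panel.

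Position along the genome was examined because neighbouring genes had appeared together. The order of the genes was taken from RefSeq, and the stretches were chosen after the values were seen, so their counts describe and do not test. At the end of chromosome 8, from NAPRT to C8orf33, 42 of 49 tested genes lay above all other arrays in KMS18 and 0 below. Over all tested genes 11% lay above and 16.3% below, and over the whole of chromosome 8 24% and 10.9%. The differences ranged from 0.12 to 1.92 on the log2 scale, with a median of 0.65. In the same stretch the medians of KMS11, KMS34 and OPM2 against their other lines were -0.27, -0.08 and -0.29. NAPRT, an enzyme of NAD synthesis, had 629 and 619 in KMS18 against 121 to 256. DGAT1, the last enzyme of triglyceride synthesis, had 873 and 792 against 257 to 396. RECQL4, a DNA helicase gene, had 391 and 356 against 141 to 202. These genes differ in function and tissue, and the stretch also held the ribosomal protein gene RPL8 (0.88 on the log2 scale), the heat shock factor gene HSF1 (0.65) and the respiratory chain gene CYC1 (1.04). MYC, which lies on the same chromosome arm, overlapped, with 1386 and 1439 against 966 to 2300. DNA copy number was not measured.

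Stretches with lower values in KMS18 lay on several chromosomes. Over all tested genes 16.3% lay below all other arrays and 11% above. From FBXO28 to ZNF692, at the end of chromosome 1, 53 of 91 tested genes were below all other arrays and 6 above, with a median of -0.49, and CDC42BPA lies in this stretch. On chromosome 10 as a whole 170 of 451 genes (37.7%) were below and 28 (6.21%) above, with a median of -0.21, and VIM, ZEB1, TET1 and DHX32 are among them. From MPRIP to EPN2 on chromosome 17, 18 of 25 genes were below and 1 above, with a median of -0.69, and this stretch holds SREBF1 and SHMT1. The medians of the other lines in the chromosome 1 and 17 stretches lay between -0.03 and 0.32. On chromosome 10 those of KMS11, KMS34 and OPM2 were -0.09, 0.09 and 0.14. There KMS11 had 58 genes below and 36 above all other arrays, and KMS34 had 23 below and 124 above. At the end of chromosome 2, 14 of 37 genes from ILKAP to DTYMK were below and 4 above, beside 19.7% and 9.03% on the whole chromosome. HDLBP, SEPTIN2 and DTYMK there were at least 2-fold lower in every array, with differences of -1.93, -1.69 and -1.60, although the stretch's median was only -0.15. Other low stretches were found in windows of 30 neighbouring tested genes. On chromosome 8, from DOCK5 to GSR, the median was -0.61, with 12 genes below and 1 above, so that the chromosome held both a lowered and a raised stretch. On chromosome 12, from STRAP to CAPRIN2, it was -0.60, with 18 below and 0 above. On chromosome 22, from ATF4 to TCF20, it was -0.48, with 20 below and 0 above, and on chromosome 4, from HADH to BBS7, -0.48, with 10 below and 0 above. The lowest windows of chromosomes 15 and 6 had medians of -0.43 and -0.40.

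A cluster of zinc finger genes on chromosome 19 was higher in KMS18. From ZNF85 to ZNF254, 9 of 13 tested genes lay above all other arrays and 0 below, beside 11% and 16.3% of all genes. The median of the cluster was 0.97. Of these 9, ZNF257 and ZNF208 reached the brightness limit only through KMS18. ZNF257 had 168 and 149.7 against 25.7 to 36.8. ZNF208 had 88.3 and 111 against 31.1 to 47.9, and ZNF91 165 and 157 against 43.3 to 82.0. These genes encode KRAB zinc finger proteins, many of which silence transposable elements, and they are close copies of each other, so probes may hybridise to more than 1 of them. Over all 379 tested genes with a ZNF symbol the median was -0.0015, with 53 (14%) above and 51 (13.5%) below. On chromosome 20, 11 of 13 genes from SNRPB2 to DTD1 lay above, with a median of 0.46, and SNRPB2, a splicing protein gene, had 1653 and 1667 against 433 to 761.

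**Figure D5:**
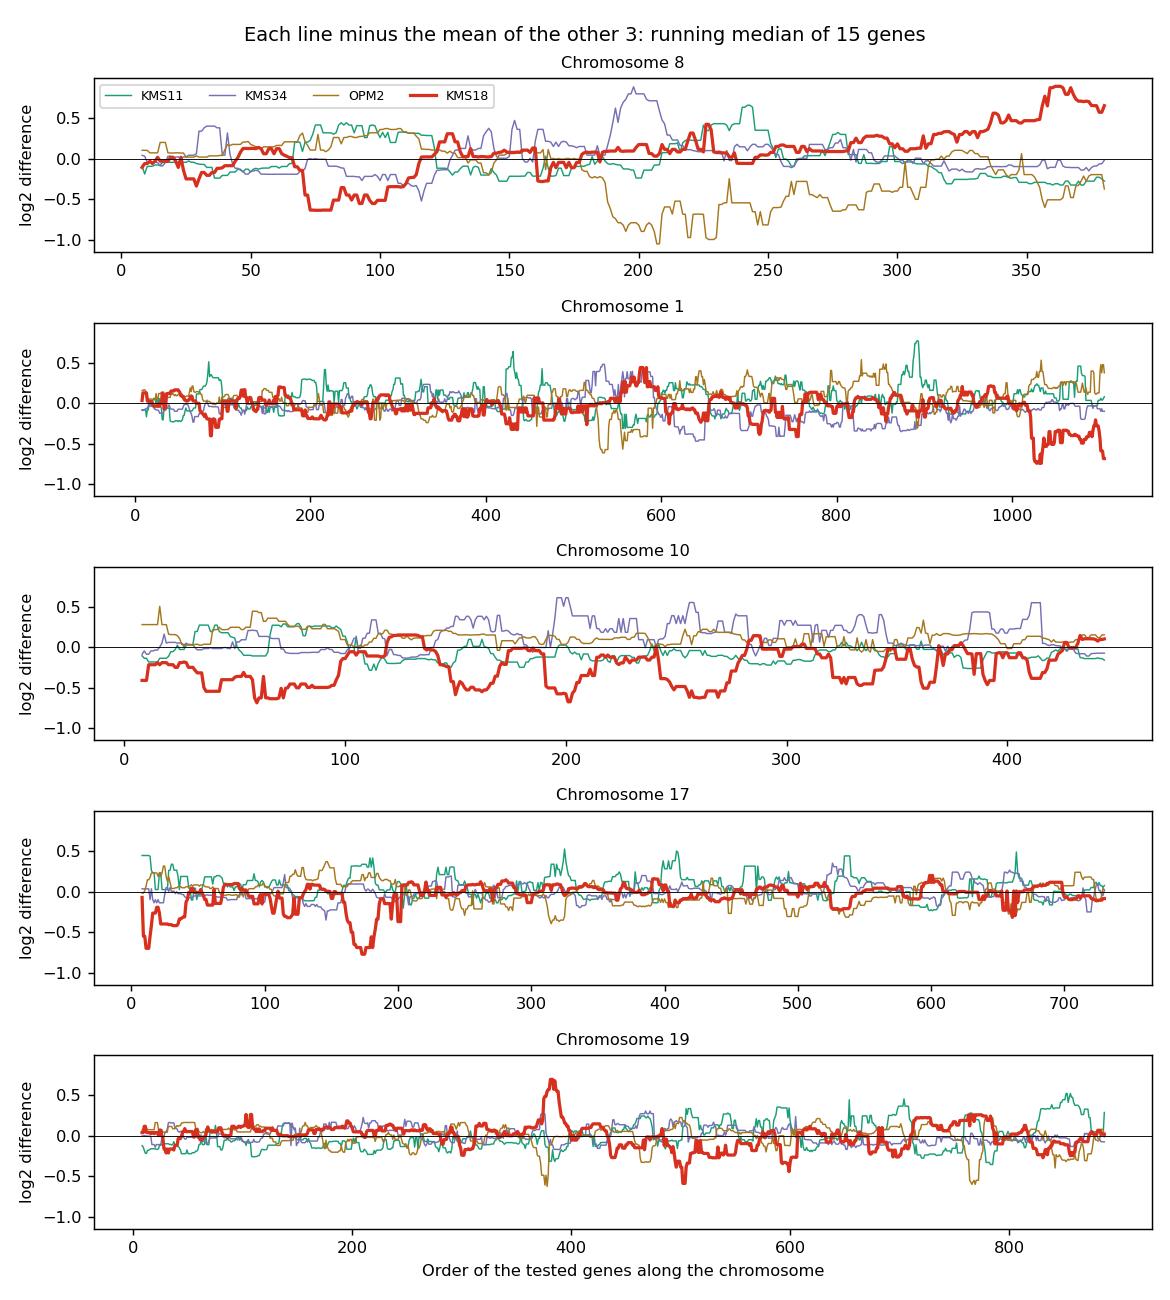
Running median over 15 neighbouring tested genes of each line minus the mean of the other 3 (log2), along the gene order of chromosomes 8, 1, 10, 17 and 19; KMS18 is the thick red line. The red line is raised at the end of chromosome 8 and in the zinc finger cluster of chromosome 19 and lowered at the end of chromosome 1, in parts of chromosome 10 and in 1 stretch of chromosome 17.

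For some genes with large differences from the mean of the other lines, 1 other line lay on the same side as KMS18. CD99, a surface glycoprotein gene, had 81.8 and 89.5 in KMS18 and 93.8 and 94.6 in OPM2, against at least 797 in KMS11 and KMS34. PHGDH and PSAT1, enzymes of serine synthesis, had 709.5 and 887 and 2278 and 2536 in KMS18, below the KMS34 values of 1144 and 1163 and 2736 and 2718. ASS1, the arginine synthesis enzyme, had 1690 and 1811 in KMS18, 3157 and 3069 in KMS34 and at most 248 in the other lines. KMS34 was the brightest line for these 3 enzymes. Metallothionein genes were low in KMS18 and KMS11 alike for MT2A, at 54.5 and 73.4 and 61.2 and 65.0, while MT1X was lowest in KMS18, at 115 and 134 against 208 to 1234.

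Counts and sums for the remaining lists were as follows, beside 11% of all tested genes above and 16.3% below. The interferon response list had 5 of 29 genes above and 0 below all other arrays with a median of 0.20. The lists of histone methylation enzymes and of WNT, Notch and Hedgehog genes had 10 of 38 and 8 of 38 below and 3 each above. Of the lists for other cell types, the T and natural killer cell list had 3 of 21 above and 2 below with a median of 0.07, the myeloid list 1 of 10 each way with a median of 0.16, the erythroid list 0 of 8 above and 1 below, and the stromal and endothelial list 2 of 6 above and 1 below. The summed intensities of these lists on the KMS18 arrays were within or below the range of the other 6, at 1827 and 1887 against 1842 to 3720 for T and natural killer cells, 789 and 817 against 743 to 999 for erythroid cells and 462 and 489.7 against 406 to 509 for stromal cells. The exception was the myeloid list, whose sum was 1602 and 1722 in KMS18 against 1398 to 1494 elsewhere, with CD14 and LYZ under the brightness limit on every array, and its part in the results was not tested. THEMIS, a T cell signalling gene, was bright in KMS11 alone, at 1301 and 1542, and was 31.7 and 30.5 in KMS18.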

How the data were processed

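Each array's deposited column holds linear intensities of transcript clusters, which the authors processed in GeneSpring, per the series text. How they corrected background, normalized and summarized is not given in the sources used here, so no probe is called above or below background. Of 44629 rows, 15835 named exactly 1 gene in the platform annotation and 28794 named none. They covered 14812 genes, each represented by its brightest row. Genes under the 25th percentile of mean log2 intensity (46.7 in linear units) were left out, which left 11109. Many genes were not analysed here.

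Log2 values were averaged over the 2 arrays of each line, and KMS18 was compared with the 3 other lines with limma 3.58.1 in R 4.3.3, with Benjamini-Hochberg adjustment over all tested genes. A random line block and independent arrays with treatment as covariate were alternatives. The fits were tested on simulated data, where all but the one on line means passed unchanged genes more often than the threshold allows. The number of arrays limits the precision. Nothing in the sources says that cultures were repeated.

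Named genes were the markers BTLA, PLEK and ESRP1, up to 15 genes per direction with the widest gap to the nearest line (symbols of noncoding RNA and sex-specific genes left out), up to 4 members per list and direction differing by at least 1 log2 unit, the translocation genes and the plasma cell genes. Genes named beside these, as list members, neighbours or members of the 2-fold set, were chosen after their values were seen. The members of the comparison, the gene lists and the tests were chosen with earlier results of these data known. Sequences came from RefSeq's promoter table for GRCh38.p14. Gene order came from RefSeq's gene table for GRCh38.p14. Alternatives were other scalings, filters, row rules, fits, thresholds, each treatment alone and each other line left out. The alternatives for list and stretch counts and the restriction to protein-coding genes were added after the data were seen.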

Additional observations from a re-analysis of the deposited data

Results flagged for a closer look

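Rows of the table that name no gene were not used above, and they also held rows that set KMS18 apart. Of 12697 such rows at or above the brightness limit, 98 (0.772%) had both KMS18 arrays at least 2-fold above all 6 others and 49 (0.386%) had both as far below. Which genes they measure was not analysed here.

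Among 132 named genes, 2 had 1 array of the other lines far from the remaining 5 (Dixon's ratio over 6 arrays past its 95% critical value, which chance exceeds in about 1 of 20 groups). ANO5 had 250.2 in the OPM2 knockdown array, above the other 5, and CADM1 had 162 in the KMS11 control array, above the other 5. Both KMS18 arrays remained outside the range of the other 6 for both genes.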

How the results depend on the processing

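Of 1831 recomputed differences of the 132 named genes, 1818 kept their direction and 13 reversed. The main differences of MT1G and LETM1, which reversed with 1 line left out, were -1.01 and -0.50. After quantile normalization the log2 difference was 0.057 for FGFR3, 0.041 for MAFA, 0.016 for MYC and 0.14 for SDC1. With arrays centred on their medians it was 0.053 for MAFA and 0.023 for SDC1, and in the knockdown arrays alone 0.076 for MAFA. With each other line left out it ranged from -0.41 to 0.22 for FGFR3, -0.94 to 0.36 for LETM1, -0.071 to 0.10 for MAFA, -1.54 to 0.040 for MT1G, -0.48 to 0.087 for MYC and -0.12 to 0.048 for SDC1. The 1 call of the limma test over lines became 0 with no filter on dim genes, with a filter at the 50th percentile, in the knockdown arrays alone, at a threshold of 0.01 and with any other line left out. It became 463 with arrays as independent samples, 44 with the line as a random block and 5363 with lines as fixed terms, which counts only the spread between the 2 arrays of a line. The count of genes at least 2-fold apart was 84 higher and 252 lower at 1.5-fold, 10 and 10 at 4-fold, 58 to 81 higher and 112 to 176 lower with each other line left out, and 110 lower in the control arrays alone. Fewer arrays to lie apart from raise these counts by construction. The 8 B cell genes above all other arrays became 4 with the filter at the 50th percentile, which tests fewer genes, and 8 to 14 with a line left out. The interaction count was 0 to 1 with a line left out. The 28 lower G2/M genes became 19 and the 19 lower cholesterol genes 16 after quantile normalization. Other counts of lists and stretches stayed within 1.5 times. No paired analysis was possible because the comparison is between lines, and each line has 1 array per treatment with the same replicate number. Signal near the brightness limit bounds the differences of dim genes, and 5 higher and 12 lower genes of the 2-fold set had a group under it.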

Other observations

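Counts of some further gene groups are given beside 11% above and 16.3% below over all tested genes. Of 20 tested HOX genes, 4 (20%) were above all other arrays and 0 below, all with small differences of at most 0.44 on the log2 scale. Of 23 tested dual specificity phosphatase genes, 5 were above and 3 below, and DUSP5, a phosphatase of ERK, had 92.5 and 71.0 in KMS18 against 127 to 230.2 elsewhere. Of 21 tested genes of amino acid synthesis and glycolysis, PHGDH, PSAT1 and ASS1 included, 8 (38.1%) were below and 0 above. PGAM1 and GPI, enzymes of glycolysis, had 147 and 195 against 363 to 677, and 1126 and 1122 against 2093 to 2909.7. SOX2, a stem cell transcription factor, had 75.8 and 105 in KMS18 against 122 to 563, with OPM2 nearest. PRAME, a cancer-testis antigen gene, had 52.98 and 49.2 against 108 to 144.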
